A study of Mus musculus with 9 samples.

Results

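The genes described here are 10 secreted signals of the mouse spinal cord, namely the chemokines Cx3cl1, Cxcl12, Ccl2, Ccl3 and Ccl4, the transforming growth factors Tgfb1, Tgfb2 and Tgfb3, and the interleukins Il33 and Il34. They were taken by symbol, and all 10 stood among the 40879 genes of the deposited tables. RNA of spinal cord from male mice was sequenced in 9 libraries, 3 from the group named SNI+LDN193189, 3 from SNI and 3 from sham. In pain research SNI is the spared nerve injury, which cuts part of the sciatic nerve and leaves the rest intact, and LDN193189 blocks the kinases of BMP type I receptors, of which ACVR1 is a member. The animals of SNI+LDN193189 therefore carried the injury and the compound, those of SNI the injury, and those of sham neither. The labels give no strain, age, cord segment or side, time after injury, dose, route or vehicle, and do not say whether a library is 1 animal or a pool, so the tests weigh differences against the spread of these libraries, which may be technical. The protocol in the labels speaks of cell lines, while the tissue label says spinal cord.

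Cytokines and chemokines act on receptors of neighbouring cells, and in the cord they tie neurons, glia and vessels together. Fractalkine, the product of Cx3cl1, sits on neurons and is read by Cx3cr1 on microglia, while Il34 is a neuronal ligand of Csf1r, the receptor on which microglia depend. The TGF-beta ligands are secreted in a latent form that integrins release, Il33 is a nuclear alarmin of glia that signals when cells are damaged, and Ccl2, Ccl3 and Ccl4 recruit monocytes and other leukocytes.

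Of the 10 genes 8 could be tested and 0 passed in any comparison. Among the 7 well-measured genes no log2 fold change was beyond that of Tgfb1 in size. Il33, the most abundant of them per length, had log2 fold changes of 0.24 in SNI+LDN193189 and 0.20 in SNI, each against sham. Tgfb1 had log2 fold changes of -0.37 in SNI+LDN193189 and -0.42 in SNI against sham. The 3 CC chemokines, Ccl2, Ccl3 and Ccl4, were read so few times that no level could be judged.

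The promoters of 3 of the genes are shown, because Il33 and Tgfb1 were the genes whose injured libraries all stood apart from sham, and Ccl3 was the one near 0 with an entry. The sequences are the 250 bases before and the 50 after each gene start in RefSeq's GRCm38.p6 annotation, which held entries for 6 of the 10 genes, and Il33 had 2 starts. Each is written 5′ to 3′ in the direction of the gene, and capitals mark the TATA box TATAAA and the GC box GGGCGG or its opposite strand, CCGCCC.
Il33, first start, chr19:29924863-29925162, plus strand: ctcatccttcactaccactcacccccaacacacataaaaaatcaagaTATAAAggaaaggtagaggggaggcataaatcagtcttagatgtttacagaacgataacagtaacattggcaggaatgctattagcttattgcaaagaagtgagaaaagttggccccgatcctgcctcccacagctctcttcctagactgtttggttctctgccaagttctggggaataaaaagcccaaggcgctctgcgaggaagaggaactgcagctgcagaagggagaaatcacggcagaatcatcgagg
Il33, second start, chr19:29945540-29945839, plus strand: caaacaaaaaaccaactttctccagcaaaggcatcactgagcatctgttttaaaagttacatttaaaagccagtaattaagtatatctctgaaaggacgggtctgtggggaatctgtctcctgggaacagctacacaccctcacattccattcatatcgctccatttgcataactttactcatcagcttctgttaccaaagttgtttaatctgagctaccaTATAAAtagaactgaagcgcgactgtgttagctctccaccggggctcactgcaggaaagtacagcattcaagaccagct
Tgfb1, chr7:25686752-25687051, plus strand: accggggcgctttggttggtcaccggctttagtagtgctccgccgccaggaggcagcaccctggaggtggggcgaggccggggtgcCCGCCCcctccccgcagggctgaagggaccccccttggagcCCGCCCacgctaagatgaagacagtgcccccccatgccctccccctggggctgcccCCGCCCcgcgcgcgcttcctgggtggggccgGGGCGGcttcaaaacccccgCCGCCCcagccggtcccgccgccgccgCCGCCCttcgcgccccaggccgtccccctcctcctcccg
Ccl3, chr11:83649329-83649628, minus strand: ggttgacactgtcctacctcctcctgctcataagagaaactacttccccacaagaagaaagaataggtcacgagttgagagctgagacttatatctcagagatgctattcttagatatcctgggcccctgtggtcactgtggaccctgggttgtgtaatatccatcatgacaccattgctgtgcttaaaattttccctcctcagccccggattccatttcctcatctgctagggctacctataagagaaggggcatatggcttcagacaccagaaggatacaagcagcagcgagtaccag
The Il33 starts each held 1 TATA box, at -203 of the first start and at -29 of the second, and no GC box. The Tgfb1 promoter held 6 GC boxes and no TATA box, and 30 CG pairs, against a median of 7 over all 32851 promoters of the table. Ccl3 held neither. Searched on both strands, TATAAA was present in 13.6% of all promoters and GGGCGG in 35.7%. An NF-kB-like pattern, GGG and CC with 5 free bases between, was in 50.8% of promoters, the AP-1 site TGAGTCA in 5.20% and the E-box CACGTG in 7.15%. The Tgfb1 window held 8 matches to the NF-kB-like pattern, some of which overlap each other or a GC box, and the windows of Il33 and Ccl3 held no match to any of these last 3. These are letter matches in a window and say nothing of binding.

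Each library held 33432776 to 37190467 counts. Neuron markers of the labelled tissue summed to 9377 to 11086 CPM, the count scaled by the library's total over the tested genes and its TMM factor. The astrocyte gene Aqp4 and the microglial gene P2ry12 were listed at 0 in all libraries while the other markers of those cells were present. For this reason a gene at 0 is called listed at 0 and not silent. Libraries differed in tissue beside the cord. Schwann cell and nerve root markers summed to 925 to 2053 CPM in SNI+LDN193189, 389 to 1006 CPM in SNI and 979 to 6446 CPM in sham. Meningeal fibroblast markers summed to 216 to 314 CPM in SNI+LDN193189, 177 to 266 CPM in SNI and 222 to 929 CPM in sham. Sham replicate 3 was the highest library for both lists, and in SNI against sham all 10 nerve root markers and all 11 tested fibroblast markers were lower. The fibroblast marker Ogn was listed at 0. Skeletal muscle markers summed to 1053 CPM in sham replicate 1 and to 81.1 to 119.7 CPM elsewhere, and perivascular macrophage and monocyte markers to 265 CPM in sham replicate 3 and to 14.9 to 46.3 CPM elsewhere. Columns were read as L for LDN193189, N for SNI and S for sham from the letters alone, and were the meanings of N and S exchanged, the values of SNI against sham would change sign and those of SNI+LDN193189 against SNI and against sham would change places.

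Levels of different genes were set side by side in FPKM, which divides the count by gene length as well as by library size. The lengths in the deposited values can differ from those of GENCODE, being 2190 bases for Tgfb1 against 5042 bases of exons in GENCODE M21. Il33 averaged 58.9 ± 5.28 FPKM over the 9 libraries (SD, n = 9), Cx3cl1 28.4 ± 1.88 and Cxcl12 11.6 ± 1.68 (SD, n = 9 each). Next came Il34 at 5.78 ± 0.831, Tgfb3 at 4.81 ± 0.478, Tgfb1 at 3.11 ± 0.551 and Tgfb2 at 2.38 ± 0.219 FPKM (SD, n = 9 each). Ccl2 averaged 0.406 FPKM, Ccl4 0.135 and Ccl3 0.111. Every library of Il33 stood above every library of Cx3cl1, every one of those above Cxcl12, and every one of those above Il34. The ranges of Il34 and Tgfb3 overlapped, as did those of Tgfb3 and Tgfb1 and of Tgfb1 and Tgfb2, so neighbours there are not separated. Tgfb2 in turn stood above Ccl2 in all libraries. This order rests on the lengths behind the deposited values. With GENCODE exon lengths Tgfb3 averaged 4.81, Tgfb2 3.50 and Tgfb1 1.35, so Tgfb1 and Tgfb2 changed places. Cxcl12 then averaged 10.2 and Il34 8.08. The ranges over libraries were not compared with these lengths, so the separation of Cxcl12 from Il34 is shown for the deposited lengths alone.

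**Figure D1:**
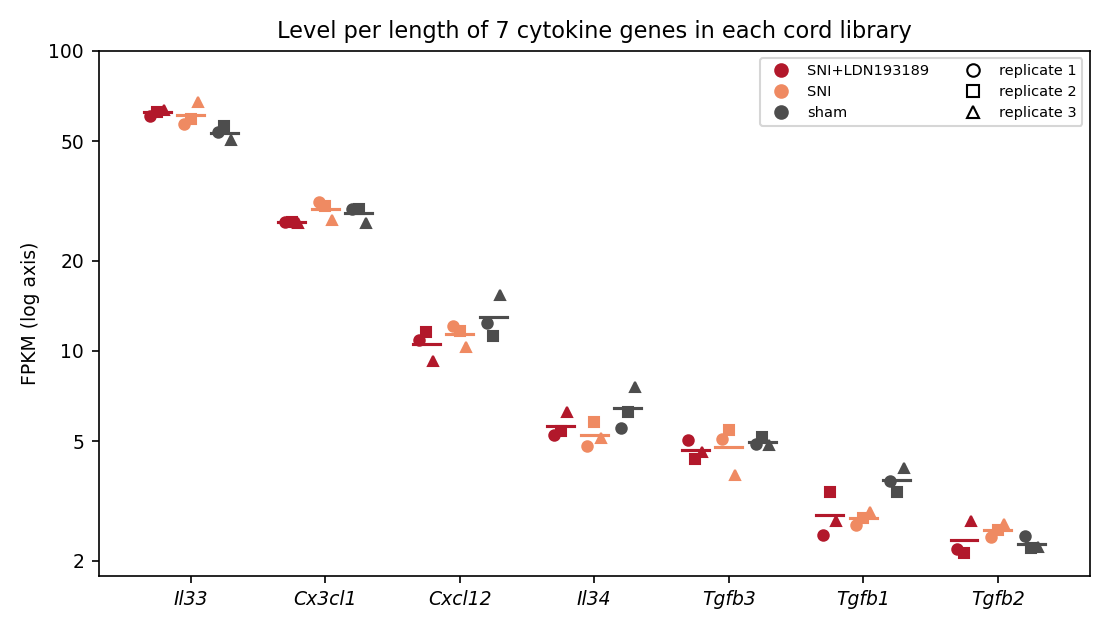
FPKM of 7 genes in each of the 9 libraries on a log axis, with colours for groups, symbols for replicates and a line at each group mean. Il33, Cx3cl1 and Cxcl12 form separate steps. Il34, Tgfb3, Tgfb1 and Tgfb2, in that order, lie between 2.12 and 7.58 FPKM, and the range of each overlaps that of the next.

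Variation among libraries was smaller for the 7 abundant genes than for the CC chemokines. The coefficient of variation of CPM over the 9 libraries was 7.29% for Cx3cl1, 9.01% for Tgfb2, 9.26% for Il33, 10.4% for Tgfb3, 13.7% for both Cxcl12 and Il34 and 17.0% for Tgfb1. For Ccl2, Ccl3 and Ccl4 it was 67.3%, 78.9% and 55.7%. Their highest count in a library was 28 reads, so counting error is part of these values and the contrast is not a property of the genes alone.

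Il33, the alarmin, lies on chromosome 19 at 29925114 to 29960718 on the plus strand of GRCm38. It stood at 180.3, 189 and 190.4 CPM in SNI+LDN193189, at 172, 176 and 198 CPM in SNI and at 157, 171 and 147 CPM in sham. All 6 injured libraries were above all 3 sham libraries, with a gap of 1.87 CPM between the lowest injured and the highest sham library. SNI+LDN193189 averaged 187 ± 5.54 CPM, SNI 182 ± 13.9 and sham 158 ± 11.8 (SD, n = 3 each). The log2 fold change was 0.20 (SE 0.06, 95% interval 0.07 to 0.34) for SNI against sham and 0.24 (SE 0.06, 0.10 to 0.37) for SNI+LDN193189 against sham. Neither passed the edgeR quasi-likelihood test after Benjamini-Hochberg (BH) adjustment over all genes, with adjusted p = 0.900 and adjusted p = 0.362. The gene ranked 121 and 101 of 18245 by p in these comparisons. Between SNI+LDN193189 and SNI the log2 fold change was 0.03 (SE 0.06, -0.10 to 0.17; edgeR adjusted p = 1.000), so the interval holds changes of either sign. In whole cord, fewer cells of a type and less RNA per cell cannot be told apart. The joint test of the 3 groups gave adjusted p = 0.681 with edgeR. Over 21 alternative settings the adjusted p for SNI+LDN193189 against sham ran from 0.0911, with DESeq2, to 0.853. With nerve root level as a covariate the log2 fold change of Il33 for SNI against sham was 0.19. Over the 21 alternative settings the value for SNI against sham ran from 0.14 to 0.26. The part of nerve root RNA in the Il33 values was not tested. Oligodendrocyte markers stood in the same direction, 10 of 10 being higher in SNI+LDN193189 than in sham (median 0.13 on the log2 scale) and 9 of 10 in SNI than in sham (median 0.11). They summed to 26785 to 29216 CPM in SNI+LDN193189, 25029 to 28851 CPM in SNI and 25315 to 27566 CPM in sham, so the groups overlapped. SNI replicate 3 had the lowest of these sums, 25029 CPM, and the highest Il33, 198 CPM. Of 7 astrocyte markers tested 5 were higher in SNI+LDN193189 than in sham and 5 in SNI than in sham, and their sums of 5124 to 5617 CPM in SNI+LDN193189, 5122 to 5615 CPM in SNI and 4711 to 5378 CPM in sham overlapped. The part of these lists in the Il33 values was not tested.

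Tgfb1 encodes the TGF-beta ligand for which the family is named and lies on chromosome 7 at 25687002 to 25705077 on the plus strand. It stood at 5.34, 7.50 and 5.96 CPM in SNI+LDN193189, at 5.83, 6.08 and 6.28 CPM in SNI and at 7.99, 7.54 and 8.75 CPM in sham. All 6 injured libraries were below all 3 sham libraries, but only by 0.0377 CPM at the closest, which was replicate 2 of SNI+LDN193189. SNI+LDN193189 averaged 6.27 ± 1.11 CPM, SNI 6.07 ± 0.225 and sham 8.09 ± 0.611 (SD, n = 3 each). The log2 fold change was -0.42 (SE 0.15, 95% interval -0.73 to -0.10) for SNI against sham, with edgeR adjusted p = 0.927, and -0.37 (SE 0.15, -0.68 to -0.05) for SNI+LDN193189 against sham, with edgeR adjusted p = 0.547. Between SNI+LDN193189 and SNI it was 0.05 (SE 0.15, -0.27 to 0.36; edgeR adjusted p = 1.000). With nerve root level as a covariate the value for SNI against sham was -0.37, and with meningeal fibroblast level -0.35. Summed microglial markers, from cells that also make Tgfb1, went the other way, at 376 to 399 CPM in SNI+LDN193189, 342 to 386 CPM in SNI and 304 to 340 CPM in sham. Of 12 microglial markers tested 12 were higher in SNI+LDN193189 than in sham and 11 were higher in SNI than in sham, and P2ry12 was listed at 0. Their part in the Tgfb1 values was not tested.

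**Figure D2:**
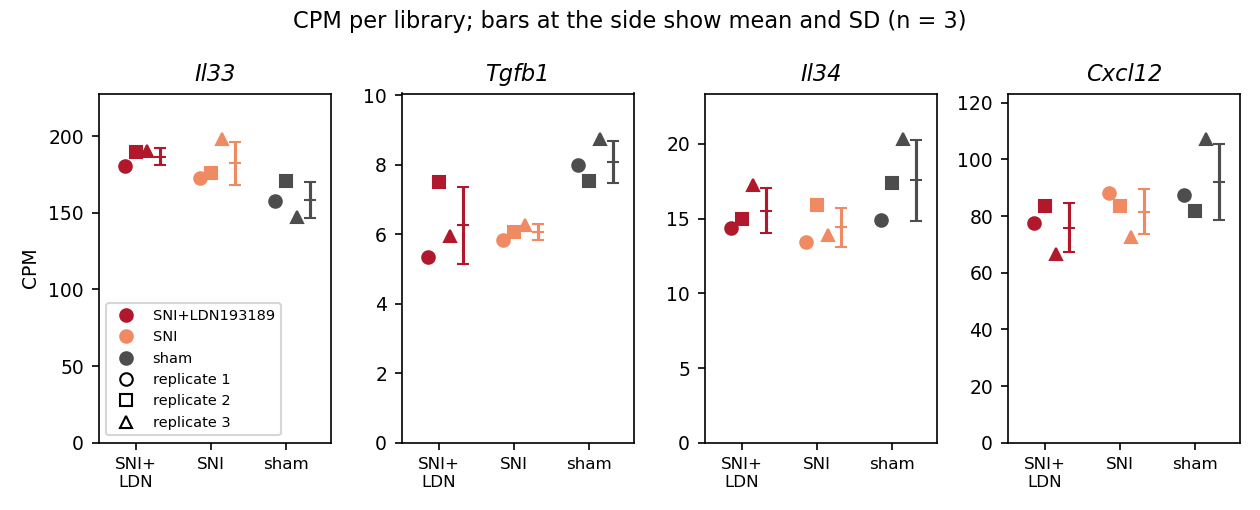
CPM of Il33, Tgfb1, Il34 and Cxcl12 in each library by group, with symbols for replicates and the mean and SD of 3 libraries at the side of each group. The injured libraries of Il33 lie above sham and those of Tgfb1 below it, while the groups of Il34 and Cxcl12 overlap.

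Tgfb2 and Tgfb3 encode the other two ligands of the family. Tgfb2 stood at 18.6, 18.3 and 23.3 CPM in SNI+LDN193189, at 20.7, 21.6 and 22.4 CPM in SNI and at 20.3, 19.1 and 18.5 CPM in sham. The SNI libraries were all above those of sham, by 0.398 CPM at the closest, while SNI+LDN193189 overlapped both other groups. The log2 fold change was 0.16 (SE 0.10; edgeR adjusted p = 0.941) for SNI against sham and -0.11 (SE 0.10; edgeR adjusted p = 1.000) for SNI+LDN193189 against SNI. Tgfb3 stood at 17.1, 14.9 and 15.6 CPM in SNI+LDN193189, at 17.5, 18.4 and 12.9 CPM in SNI and at 16.3, 17.8 and 16.0 CPM in sham. Its groups overlapped in all comparisons, with log2 fold changes of -0.03 for SNI+LDN193189 against SNI and -0.04 for SNI against sham, each with SE 0.12. Replicate 3 of SNI was the lowest library for Tgfb3. No difference among the 3 ligands was tested. Tgfb3 lies on chromosome 12 at 86056745 to 86079041 on the minus strand of GRCm38 and shares 5149 bases with Ttll5 on the plus strand. Whether counting used strand is not given in the sources used here, so reads of the 2 genes might not be separable.

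Il34, the Csf1r ligand, lies on chromosome 8 at 110741829 to 110805924 on the minus strand. It stood at 14.3, 15.0 and 17.2 CPM in SNI+LDN193189, at 13.4, 15.9 and 13.9 CPM in SNI and at 14.9, 17.4 and 20.3 CPM in sham. The groups overlapped, and sham replicate 3 was the highest library. On the log2 scale the fold change was -0.28 (SE 0.12, 95% interval -0.54 to -0.03) for SNI against sham, with edgeR adjusted p = 0.927, and -0.18 (SE 0.12) for SNI+LDN193189 against sham, with edgeR adjusted p = 0.705. With nerve root level as a covariate the value for SNI against sham was -0.06, and without sham replicate 3 it was -0.17. SNI+LDN193189 against SNI gave 0.11 (SE 0.12; edgeR adjusted p = 1.000).

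Cx3cl1, the fractalkine gene, lies on chromosome 8 at 94772009 to 94782427 and Cxcl12 on chromosome 6 at 117168535 to 117181367, both on the plus strand. Cx3cl1 stood at 84.3, 85.5 and 84.4 CPM in SNI+LDN193189, at 100.3, 95.5 and 84.6 CPM in SNI and at 92.3, 95.1 and 82.2 CPM in sham. SNI+LDN193189 was the tightest of the groups, with an SD of 0.677 CPM against 8.06 in SNI and 6.79 in sham, and replicate 3 was the lowest library of both SNI and sham. On the log2 scale the fold change was -0.14 (SE 0.07, 95% interval -0.29 to 0.00313) for SNI+LDN193189 against SNI, with edgeR adjusted p = 1.000. It was 0.06 (SE 0.07; edgeR adjusted p = 0.977) for SNI against sham and -0.09 (SE 0.07; edgeR adjusted p = 0.741) for SNI+LDN193189 against sham. Without SNI replicate 3 the value for SNI+LDN193189 against SNI was -0.21 with edgeR adjusted p = 0.693. That was the largest in size over the 21 alternative settings, in which the value ran from -0.21 to -0.06.

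Cxcl12 encodes the ligand of Cxcr4 and of the scavenging receptor Ackr3. It stood at 77.6, 83.6 and 66.5 CPM in SNI+LDN193189, at 88.1, 83.5 and 72.7 CPM in SNI and at 87.5, 81.6 and 107 CPM in sham. Sham replicate 3 was the highest library and SNI+LDN193189 replicate 3 the lowest, and the groups overlapped. The log2 fold change was -0.28 (SE 0.12, 95% interval -0.55 to -0.01) for SNI+LDN193189 against sham, with edgeR adjusted p = 0.579. It was -0.18 (SE 0.12; edgeR adjusted p = 0.943) for SNI against sham and -0.10 (SE 0.12; edgeR adjusted p = 1.000) for SNI+LDN193189 against SNI. Without sham replicate 3, the library with the most nerve root and meningeal RNA, these became -0.16 for SNI+LDN193189 against sham and -0.06 for SNI against sham. With nerve root level as a covariate the value for SNI against sham was -0.07. Endothelial markers stood in the same direction as Cxcl12, 7 of 9 being lower in SNI+LDN193189 than in sham, 6 of them at an unadjusted p under 0.05 with edgeR, a level that 8.56% of all genes reached. The median of the 9 was -0.30 on the log2 scale. They summed to 371 to 405 CPM in SNI+LDN193189, 381 to 423 CPM in SNI and 374 to 459 CPM in sham. Their part in the Cxcl12 values was not tested.

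**Figure D3:**
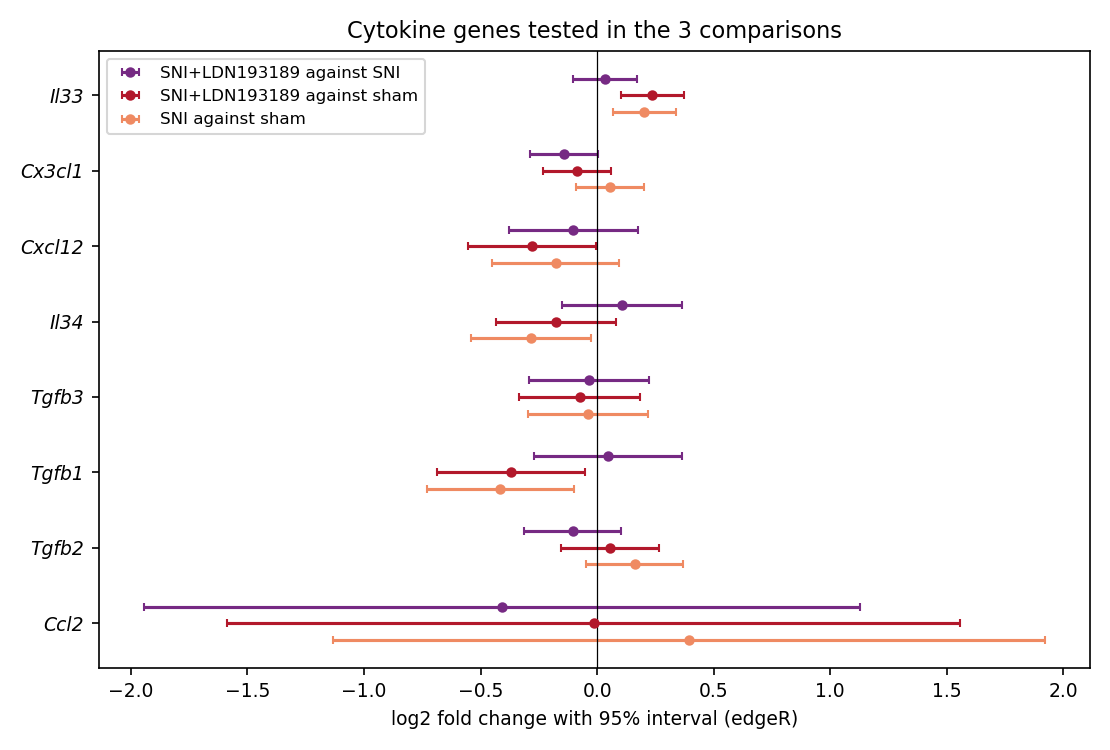
log2 fold changes with 95% intervals from the edgeR fit for the 8 genes tested, with genes from the highest to the lowest FPKM and a colour for each comparison. For SNI+LDN193189 against SNI all 8 intervals hold 0. The Ccl2 intervals span more than 3 log2 units.

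Ccl2, Ccl3 and Ccl4 are the monocyte and leukocyte attractants of the set, and their values are read counts. Ccl2 had 8, 18 and 4 reads in SNI+LDN193189, 2, 12 and 28 in SNI and 8, 12 and 12 in sham. Ccl3 had 2, 5 and 2 reads in SNI+LDN193189, 0, 1 and 8 in SNI and 3, 2 and 5 in sham. Ccl4 had 4, 2 and 4 reads in SNI+LDN193189, 4, 2 and 2 in SNI and 6, 4 and 0 in sham. The highest of these 27 values was 28 and 2 were 0, and a count of 0 allows up to 3 reads, or 0.0911 CPM for Ccl3 in SNI replicate 1 and 0.0807 CPM for Ccl4 in sham replicate 3. Summed over 3 libraries, Ccl2 had 30 reads in SNI+LDN193189 (95% exact Poisson interval 20.2 to 42.8), 42 in SNI (30.3 to 56.8) and 32 in sham (21.9 to 45.2). Ccl3 summed to 9 reads in SNI+LDN193189, 9 in SNI and 10 in sham. Ccl4 summed to 10 reads in SNI+LDN193189, 8 in SNI and 10 in sham. The intervals of the 3 groups overlap for each gene. These limits cover counting error only and take each read as independent. Of the 25 values above 0, 21 were even, and where reads were counted in pairs the limits would be wider. Ccl3 and Ccl4 did not pass the filter on low counts and were not tested, and Ccl2 passed it. For Ccl2 the log2 fold change was -0.41 (SE 0.72, 95% interval -1.95 to 1.13) for SNI+LDN193189 against SNI and 0.39 (SE 0.72, -1.13 to 1.92) for SNI against sham. These 3 genes were read as too low to judge, and no difference was detected in Ccl2, which alone was tested. Its reads in SNI ran from 2 to 28, and the parts of depth and of spread among libraries were not tested. Ccl2 lies wholly inside Gm17268 on the opposite strand, on chromosome 11 at 82035571 to 82037453, and Ccl3 and Ccl4 lie 13228 bases apart on the same chromosome.

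**Figure D4:**
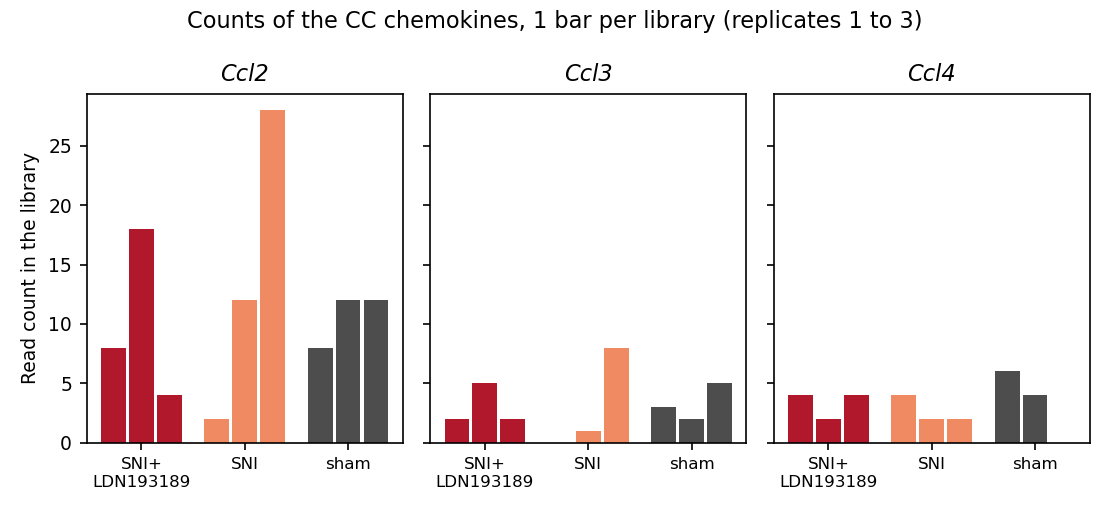
Read counts of Ccl2, Ccl3 and Ccl4, with 1 bar for each library and groups in colour. The highest bar is Ccl2 at 28 reads in SNI replicate 3, and the 3 groups overlap for each gene.

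Across all genes tested, 0.00548% were called in SNI+LDN193189 against SNI, 0.0164% in SNI+LDN193189 against sham, 0% in SNI against sham and 0.00548% in the joint test of the 3 groups. The count of these cytokine genes called was 0 of 8 in each, which is near that background. In SNI against sham 972 genes had an unadjusted p under 0.05 with edgeR and 24 were called with DESeq2. The share of all genes at that unadjusted level was 3.88% in SNI+LDN193189 against SNI, 8.56% in SNI+LDN193189 against sham and 5.33% in SNI against sham. Unadjusted p under 0.05 with edgeR was reached by 0 of the 8 in SNI+LDN193189 against SNI, by Il33, Tgfb1 and Il34 in SNI against sham and by Il33, Tgfb1 and Cxcl12 in SNI+LDN193189 against sham. These comparisons share the sham libraries. Groups without overlap were also counted. In SNI against sham 2 of the 8, Il33 and Tgfb2, had all SNI libraries above all sham libraries, against 4.45% of all genes, and 1, Tgfb1, had them all below, against 4.43%. In SNI+LDN193189 against sham 1 of the 8, Il33, was above, against 6.81% of all genes, and 1, Tgfb1, below, against 6.31%. In SNI+LDN193189 against SNI 0 of the 8 were above or below, against 5.71% and 5.55%. The share of all genes with both injured groups on the same side of sham without overlap was not counted. The median log2 fold change of the 8 was -0.0680 in SNI+LDN193189 against SNI, where that of all genes tested was -0.000748. It was 0.00847 in SNI against sham, beside 0.000482 over all genes, and -0.0797 in SNI+LDN193189 against sham, beside -0.00688.

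The receptors were measured in all 14 cases, and 0 of 14 passed the edgeR test in any comparison. Cx3cr1, the fractalkine receptor, averaged 42.3 ± 2.97 CPM in SNI+LDN193189, 46.1 ± 3.95 CPM in SNI and 37.3 ± 3.66 CPM in sham (SD, n = 3 each). All SNI libraries were above sham, as in 4.45% of all genes, the log2 fold change being 0.31 (SE 0.08; edgeR adjusted p = 0.900). Csf1r, which binds Il34, averaged 77.6 ± 5.17 CPM in SNI+LDN193189, 75.3 ± 1.60 CPM in SNI and 66.0 ± 2.93 CPM in sham (SD, n = 3 each). Both injured groups lay above sham without overlap, where 6.81% of all genes did so in SNI+LDN193189 and 4.45% in SNI. The log2 fold change was 0.23 (SE 0.06; edgeR adjusted p = 0.345) for SNI+LDN193189 against sham. Both receptors are microglial markers, and belong to the summed microglial list given with Tgfb1, in which both injured groups also lay above sham. The part of that list in the receptor values was not tested. Tgfbr1, the kinase receptor of the TGF-beta ligands, averaged 44.5 ± 2.09 CPM in SNI+LDN193189, 42.3 ± 2.03 CPM in SNI and 38.5 ± 1.70 CPM in sham (SD, n = 3 each), with a log2 fold change of 0.21 (SE 0.07; edgeR adjusted p = 0.454) for SNI+LDN193189 against sham. Its partner Tgfbr2 had 41.3 CPM in sham replicate 3 and at most 28.9 CPM in the other libraries. Per length, Ptprz1, which also binds Il34, averaged 26.3 FPKM over the 9 libraries, Csf1r 18.9 and Cx3cr1 11.2, against 0.0842 for Il1rl1, the receptor of Il33, and 0.275 for Ccr1 and 0.383 for Ccr2, chemokine receptors of leukocytes.

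Genes that process or activate the ligands, 16 of 17 of which were tested, were called in 0 cases by edgeR. Adam10 and Adam17, the proteases that shed fractalkine from the cell surface, were lower in mean level. The log2 fold change of Adam10 was -0.39 (SE 0.17; edgeR adjusted p = 0.927) in SNI against sham, or -0.18 without sham replicate 3, and that of Adam17 was -0.26 (SE 0.11; edgeR adjusted p = 0.557) in SNI+LDN193189 against sham. Itgav, the integrin chain that releases latent TGF-beta, averaged 167 ± 8.88 CPM in SNI+LDN193189, 153 ± 3.32 CPM in SNI and 164 ± 11.2 CPM in sham (SD, n = 3 each). Its log2 fold change was 0.13 (SE 0.06; edgeR adjusted p = 1.000) for SNI+LDN193189 against SNI. Dcn is a matrix proteoglycan that binds TGF-beta and marks meningeal fibroblasts. It averaged 56.1 ± 12.2 CPM in SNI+LDN193189, 33.1 ± 14.4 CPM in SNI and 118 ± 82.0 CPM in sham (SD, n = 3 each), with sham replicate 3 at 207 CPM.

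TGF-beta transducers and targets, all 13 of them tested, were called in 0 cases by edgeR. Smad7 is an inhibitory Smad that TGF-beta and BMP signals induce. It averaged 25.1 ± 3.52 CPM in SNI+LDN193189, 26.0 ± 1.76 CPM in SNI and 20.7 ± 1.21 CPM in sham (SD, n = 3 each). Its log2 fold change was 0.32 (SE 0.10; edgeR adjusted p = 0.900) for SNI against sham. Skil, a corepressor of Smad proteins, averaged 54.6 ± 4.33 CPM in SNI+LDN193189, 62.5 ± 2.98 CPM in SNI and 60.7 ± 2.94 CPM in sham (SD, n = 3 each). Its log2 fold change was -0.19 (SE 0.07; edgeR adjusted p = 1.000) for SNI+LDN193189 against SNI. For Smad7 all SNI libraries were above sham, as in 4.45% of all genes. For Skil all SNI+LDN193189 libraries were below SNI, as in 5.55% of all genes. Both genes were named for a small p in their list. Unadjusted p under 0.05 was reached by 1 of the 13 in SNI+LDN193189 against SNI, which was lower, and by 1 in SNI against sham, which was higher. In SNI+LDN193189 against sham 2 were higher and 1 was lower at that level, where 3.88%, 5.33% and 8.56% of all genes reached it in these 3 comparisons in turn.

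Among 37 other cytokines 18 were tested and among 30 other chemokines 15, and 0 of these were called by edgeR in any comparison. Il18, a cytokine released by inflammasomes, averaged 36.4 ± 2.49 CPM in SNI+LDN193189, 33.3 ± 3.24 CPM in SNI and 31.5 ± 1.97 CPM in sham (SD, n = 3 each). Its log2 fold change was 0.21 (SE 0.08; edgeR adjusted p = 0.547) for SNI+LDN193189 against sham. Ccl11, the eotaxin that meningeal and other fibroblasts make, averaged 0.926 ± 0.367 CPM in SNI+LDN193189, 0.460 ± 0.307 CPM in SNI and 1.99 ± 1.64 CPM in sham (SD, n = 3 each). Sham replicate 3 stood at 3.88 CPM. Listed at 0 in all libraries were 9 of the other cytokines, namely Il1b, Il6, Cntf, Clcf1, Csf1, Csf2, Tnfsf12, Tnfsf13 and Ifnb1, and 7 of the other chemokines, namely Ccl5, Ccl6, Ccl19, Cxcl2, Cxcl10, Cxcl11 and Cxcl17.

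Among the 8 genes tested, 28 pairs were correlated over the 9 libraries on log2 CPM. Cxcl12 and Il33 went in opposite directions, with Pearson's r = -0.858 (permutation p = 0.0031, BH adjusted p = 0.0869) and Spearman's rho = -0.783 (permutation p = 0.0172, BH adjusted p = 0.482). Without the 2 libraries farthest from the median of Cxcl12, sham replicate 3 and SNI+LDN193189 replicate 3, r was -0.747. On deviations from the group means r was -0.803, for which no p was computed. The permutations ran over all 9 libraries regardless of group, so their p does not separate group differences from spread within groups. The pair did not pass after adjustment over the 28 pairs. Sham replicate 3 was also the library with the most nerve root and meningeal RNA, and the part of that RNA in the correlation was not tested. All the other pairs had a BH adjusted p of Pearson's r of 0.312 or more.

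**Figure D5:**
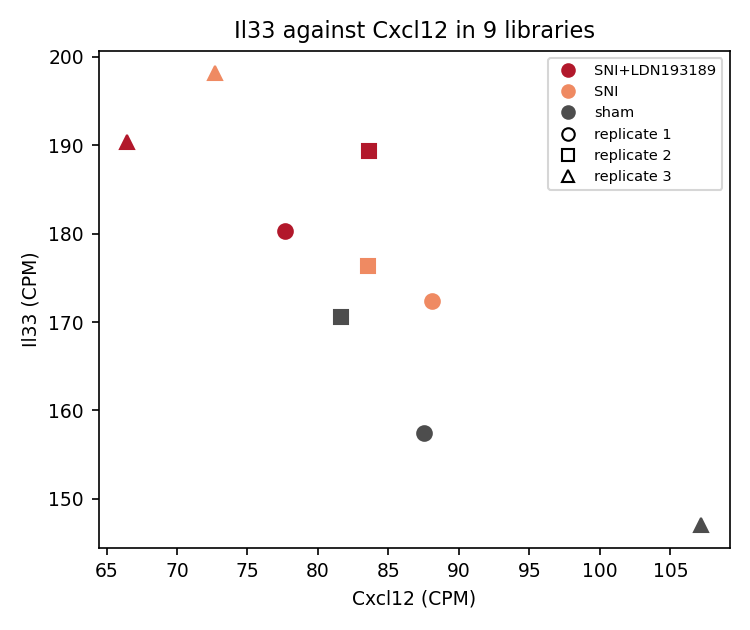
Il33 against Cxcl12 in CPM, 1 point for each of the 9 libraries, with colours for groups and symbols for replicates. The libraries run from low Cxcl12 with high Il33 to sham replicate 3 with the highest Cxcl12 and the lowest Il33.

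The tested genes most like each of these over the 9 libraries, out of 15185 with a mean of at least 1 CPM, were taken by Pearson's r of log2 CPM as a description. For Cxcl12 they were Esam, an endothelial adhesion molecule, at r = 0.965, and Nos3, the endothelial nitric oxide synthase, at r = 0.940, followed by Ikbkb. For Tgfb1 they were A730009L09Rik at r = 0.930, Slc1a3, an astrocyte glutamate transporter, at r = 0.913 and Col6a1, a collagen chain, at r = 0.907. For Il33 they were Gm26684, Atp6v1h and Isoc1 at r = 0.952 to 0.965, and for Cx3cl1 Oprd1, Rab11fip4 and Luzp1 at r = 0.945 or more. These are the highest of many values over 9 libraries and were chosen as such.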

How the data were processed

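RNA of 9 libraries was selected by poly(A) tail and made into strand-marked libraries, per the labels' protocols. The authors deposited whole-number read counts and FPKM for 40879 gene symbols. Dividing each deposited count by its column total and by a single length for the gene gave the deposited FPKM in 24535 of 24535 genes checked (relative tolerance 1e-06). The submitters' processing notes name mm10; the aligner, counter and annotation are not given in the sources used here. Between 70.7 and 71.8% of the counts above 0 in a library were even.

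Counts were tested with edgeR 4.0.16 in R 4.3.3 (quasi-likelihood F test, robust, TMM factors 0.984 to 1.02) after filterByExpr left 18245 genes, in 1 fit of the 3 groups with 6 residual degrees of freedom. Adjusted p-values are Benjamini-Hochberg over all genes tested, called under 0.05. A gene of the set was too low to judge where it failed the filter; Ccl2 passed and was also read as too low. CPM are counts over the library total of the tested genes times its TMM factor, for all genes. Alternatives used DESeq2 1.42.0, limma 3.58.1, other filters and scalings, covariates, a replicate block and leaving out each library. In simulated data the fit recovered, among 17979 genes, 67.9% of those given a log2 change of 1 between SNI+LDN193189 and SNI, 62.1% between SNI+LDN193189 and sham and 68.0% between SNI and sham; 7.34, 10.4 and 3.60% of the calls there were false, in the same order. Recovery at smaller log2 changes was not tested. Those of Tgfb1, -0.42 in SNI against sham, and of Il33, 0.24 in SNI+LDN193189 against sham, were smaller in size. The members and lists were chosen with earlier results of these data known. Beside the 10 genes, the text names receptors fixed by name and up to 4 genes per list with the smallest p. Loci are from GENCODE M21 on GRCm38.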

Additional observations from a re-analysis of the deposited data

How the results depend on the processing

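Under 21 alternatives, 0 of the cytokine genes were called in any comparison. Of 501 values of their log2 fold change, 475 kept the direction and 26 reversed; the cause was not tested. In SNI+LDN193189 against SNI, reversals were Tgfb3 at 0.00395 and Il34 at -0.00301 with nerve root level as a covariate and Ccl2 at 0.0290 with limma-voom. Leaving out 1 library gave -0.10 to 0.15 for Tgfb1, -0.18 to 0.0655 for Tgfb3, -0.00403 to 0.0982 for Il33 and -1.16 to 0.57 for Ccl2, with the reversed value of Tgfb1 without SNI+LDN193189 replicate 2 and of Ccl2 without SNI replicate 3. In SNI against sham, Cx3cl1 was -0.0882 with nerve root and -0.0385 with fibroblast level as a covariate, and Ccl2 was -0.30 with limma-voom and -0.0302 with log2(FPKM + 0.1) with or without a filter. Leaving out 1 library there gave -0.00602 to 0.12 for Cx3cl1, -0.14 to 0.10 for Tgfb3 and -0.59 to 0.88 for Ccl2. With sham as the reference for SNI+LDN193189, Tgfb2 was -0.00949 with fibroblast level, and Ccl2 was 0.50 with either covariate. Leaving out 1 library gave -0.0677 to 0.12 for Tgfb2 and -0.77 to 0.37 for Ccl2.

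Genes called over all genes in SNI+LDN193189 against SNI were 1 by edgeR, 5 with DESeq2, 2 with no filter, with unfiltered log2 FPKM or with nerve root level, 3 with the 2 groups alone, 0 with either filtered log2 FPKM and 0 to 2 without 1 library. In SNI against sham they were 0, then 24 with DESeq2, 2 with unfiltered log2 FPKM, 16 with nerve root level, 7 with fibroblast level and 0 to 38 without 1 library. In SNI+LDN193189 against sham they were 3, then 72 with DESeq2, 1 with limma-voom or filtered log2 FPKM, 30 with no filter, 15 with nerve root level, 22 with fibroblast level and 1 to 17 without 1 library. In the joint test they were 1, then 78 with DESeq2, 25 with no filter, 0 with filtered and 4 with unfiltered log2 FPKM, 18 with nerve root level, 15 with fibroblast level and 1 to 19 without 1 library.

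On deviations of log2 CPM from the group means over the genes tested, same-numbered libraries correlated at -0.158 to 0.198, 2 of 9 pairs over 0.1. With 3 libraries a group these values cannot show whether the numbers pair the samples. The replicate block gave 0 genes called in SNI+LDN193189 against SNI, 4 in SNI+LDN193189 against sham, 0 in SNI against sham and 5 in the joint test.

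Low counts limit Ccl2, Ccl3 and Ccl4, and spread among libraries also limits Ccl2. Leaving out libraries for genes of the pathway lists, and GENCODE lengths for the levels, were chosen after seeing the data.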
